A study of Mus musculus with 12 samples.

Results

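The 10 genes described here encode the MAP kinase phosphatases, the dual-specificity phosphatases (Dusp) that remove phosphate from both the threonine and the tyrosine of an active MAP kinase. They were found as the rows of the transcript table whose symbol is Dusp1, Dusp2, Dusp4, Dusp5, Dusp6, Dusp7, Dusp8, Dusp9, Dusp10 or Dusp16, that is 10 of 52169 gene symbols and 55 of 189364 transcripts with a gene. Each gene was represented by its transcript with the highest mean level over the 12 libraries. All 10 were present in the table, and 9 of them passed the filter on low counts in every comparison. Dusp9 did not.

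RNA-seq libraries were made from the striatum of female C57BL/6J mice in which the dopamine innervation of the right hemisphere had been removed by 1 µl of the neurotoxin 6-OHDA (3 µg/µl), injected into the medial forebrain bundle after 25 mg/kg desipramine. All mice recovered for 2 weeks and all received L-DOPA, the precursor of dopamine, at 10 mg/kg with 7.5 mg/kg benserazide, a blocker of its conversion outside the brain. In the acute groups L-DOPA was given once. In the chronic groups it was given daily for 9 days, and in both cases the mice were killed 1 h after the last dose. The left (unlesioned) and right (lesioned) striatum of each treatment gave 4 groups of 3 libraries. The lesion is a toxin model on 1 side of the brain, described as lowering striatal tyrosine hydroxylase by at least 80%, and no library here comes from mice without L-DOPA, so that loss of dopamine and the response to L-DOPA on the lesioned side cannot be told apart. The age of the mice was not given in the sources used here. The series describes 12 mice for the 12 libraries, whereas the study presents the unlesioned side as a control within the mouse.

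Levels are given in CPM, that is read counts scaled to a common library total and, by TMM, for library composition, as mean ± SD of the 3 libraries of a group. Levels of different genes are compared only per kilobase of transcript. Differences are log2 fold changes from edgeR's quasi-likelihood test across all transcripts, each with its standard error (SE), and a gene is said to have risen or fallen when its Benjamini-Hochberg adjusted p was under 0.05. Over all transcripts the libraries held 87695043 to 173116525 counts, in which a read is counted on each transcript it overlaps. With 1 transcript per gene they held 18373868 to 36492201. CPM are scaled to the totals over all transcripts, and a count of 3 corresponds to 0.0171 to 0.0347 CPM. This floor covers counting error only, whereas SEs and 95% intervals of differences reflect the spread between libraries.

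MAP kinases (ERK, JNK and p38) are switched on by phosphorylation of a threonine and a tyrosine in their activation loop, and MAP kinase phosphatases switch them off by removing both. Several of the phosphatase genes are themselves transcribed in response to MAP kinase activity, and so belong to the immediate early genes that neurons express after strong stimulation. In medium spiny neurons of the dopamine-depleted striatum, ERK is known to be activated by L-DOPA through D1 receptors. The family falls into 3 classes. Dusp1, Dusp2, Dusp4 and Dusp5 are inducible enzymes of the nucleus, Dusp6, Dusp7 and Dusp9 are cytoplasmic enzymes that prefer ERK, and Dusp8, Dusp10 and Dusp16 prefer JNK and p38.

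The sequence before the start of 8 members was taken from RefSeq (GRCm38.p6). Dusp4 and Dusp9 had no entry. The window of 250 bases before to 50 bases after each start was searched on both strands for the cAMP response element (CRE) TGACGTCA, its core TGACG, which every full CRE also contains, the AP-1 site TGANTCA, the EGR sites GCGTGGGCG and GCGGGGGCG, and the CArG box bound by serum response factor. These motifs were chosen because CREB, AP-1, EGR and serum response factor are known to act downstream of MAP kinases. Sites of other factors that do so were not searched, so a promoter without a match may still hold such sites. Shown are the stretches around the matches of the inducible nuclear genes, of Dusp8, which holds the CRE as well and whose level varied little, and, with no match, the 100 bases before the start of Dusp6. Positions are in mm9, the build of the counts, found as the only exact match of each stretch. All are written 5′ to 3′ in the direction of the gene, with the motif matches in capitals.
Dusp1, chr17:26645538-26645623, minus strand: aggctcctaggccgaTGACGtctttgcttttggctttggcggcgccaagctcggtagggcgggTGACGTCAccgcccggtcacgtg
Dusp2, chr2:127161782-127161820, plus strand: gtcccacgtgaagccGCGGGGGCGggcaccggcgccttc
Dusp5, chr19:53603538-53603598, plus strand: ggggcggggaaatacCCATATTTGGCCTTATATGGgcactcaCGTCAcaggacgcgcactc
Dusp8, chr7:149281230-149281311, minus strand: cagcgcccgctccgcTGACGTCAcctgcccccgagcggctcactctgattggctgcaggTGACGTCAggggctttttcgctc
Dusp6, chr10:98725765-98725864, plus strand: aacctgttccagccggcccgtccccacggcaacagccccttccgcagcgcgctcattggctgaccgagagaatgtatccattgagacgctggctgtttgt

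Dusp1 had a full CRE from base -143 to base -136 before its start and a further core from -191 to -187. Dusp8 had full CREs from -107 to -100 and from -63 to -56, and a full CRE stood in 1.79% of all 32851 promoters of the same length. Dusp5 had a pair of adjoining CArG boxes from -82 to -63, with a CRE core on the opposite strand from -55 to -51. A CArG box was found in 1.63% of all promoters. Dusp2 had an EGR site from -98 to -90, of a form present in 2.91% of promoters, and a CRE core from 6 to 10 bases after its start, which is not shown. Dusp16 had a CRE core only, which is frequent, being found in 20.8% of promoters. Dusp6, Dusp7 and Dusp10 had none of these letters in the window, and no member had an AP-1 site (7.81% of promoters) or the EGR site GCGTGGGCG (0.612%). These are matches of letters and not measured binding sites, and the start in RefSeq lay 36 bases inside the counted transcript of Dusp5 and 12 bases before that of Dusp8.

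After acute L-DOPA, Dusp1, Dusp5, Dusp6 and Dusp10 rose in the lesioned striatum and Dusp7 fell, so that 5 of the 9 members tested changed, against 12.9% of all transcripts tested (6.85% higher, 6.02% lower) and 15.3% of genes taken with 1 transcript each. After chronic L-DOPA, Dusp1, Dusp2, Dusp4, Dusp5 and Dusp6 rose and Dusp7 fell, 6 of 9, against 12% of transcripts (7.71% higher, 4.33% lower) and 13.7% of genes. Directly compared in the lesioned striatum, the 4 nuclear members were higher after chronic than after acute L-DOPA and Dusp6, Dusp7 and Dusp10 were lower, 7 of 9, against 23.3% of transcripts (12.1% higher, 11.2% lower) and 25.6% of genes. In the unlesioned striatum only Dusp6 differed between the treatments, being lower after chronic L-DOPA, 1 of 9 against 2.61% of transcripts (0.969% higher, 1.64% lower) and 3.07% of genes. The lesion effect itself, tested as an interaction over all 12 libraries, differed between chronic and acute L-DOPA for 5 of 9 members, against 4.52% of transcripts (3.22% higher, 1.3% lower) and 5.1% of genes. It was larger for Dusp1, Dusp2 and Dusp5 after chronic L-DOPA and smaller for Dusp6 and Dusp10. The median log2 fold change of the 9 members was 0.41 in the acute and 1.28 in the chronic comparison of the sides, where the median of all transcripts was 0.01 and -0.02.

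**Figure D1:**
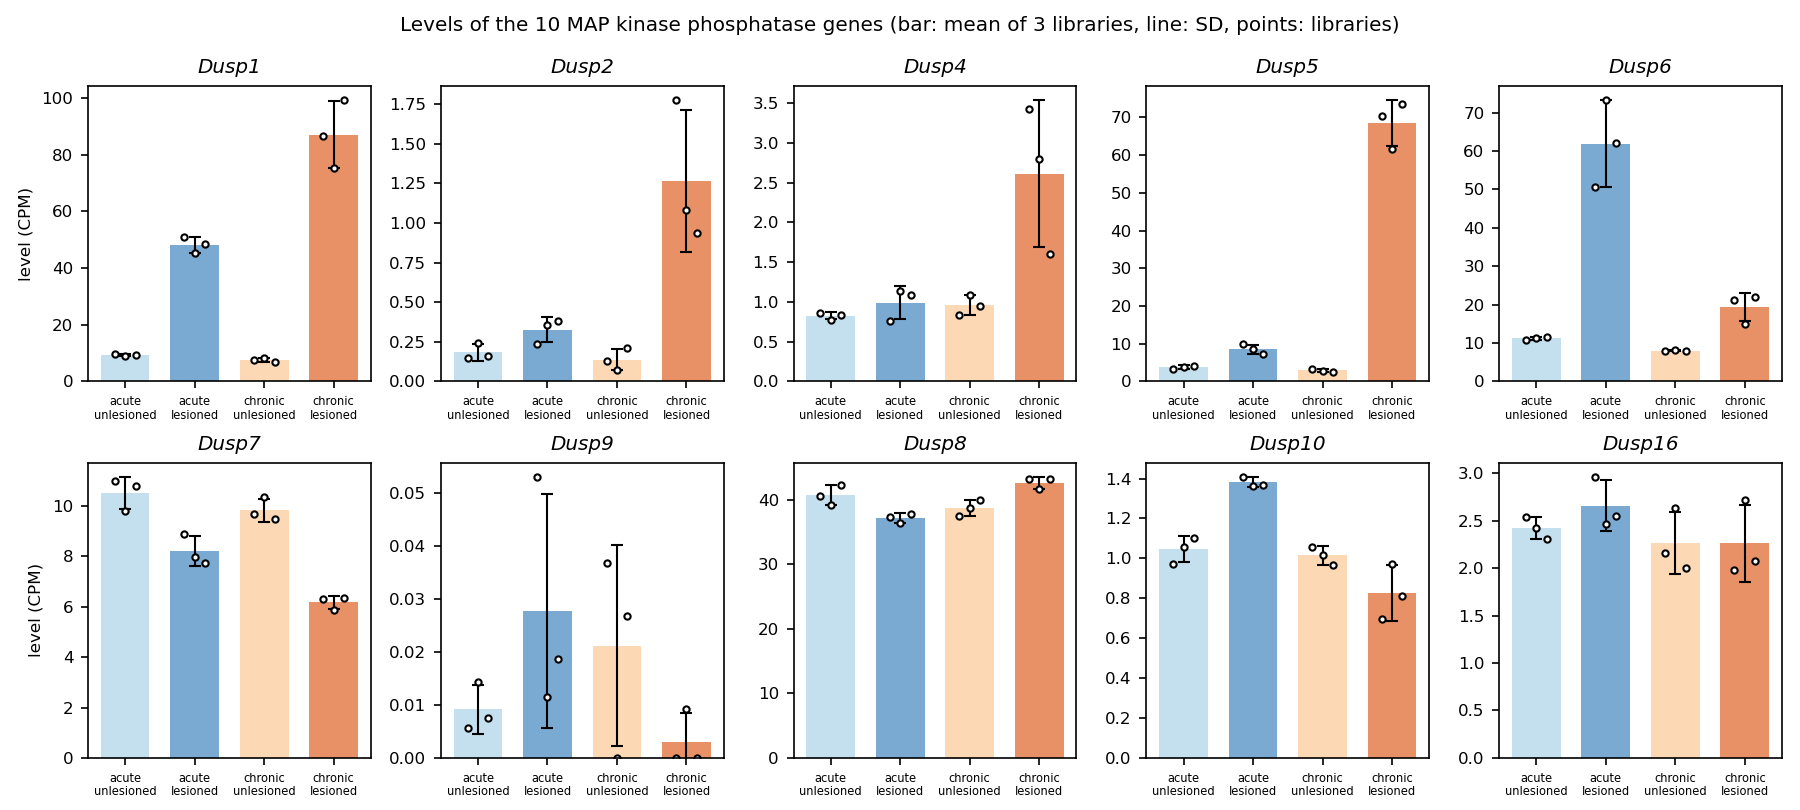
Level in CPM (vertical axes, each from 0) of each member in the 4 groups (horizontal axis); bars are means of 3 libraries, lines the SD and points the libraries. Dusp1 and Dusp5 reach their highest levels in the chronic lesioned striatum (87.1 and 68.5 CPM), Dusp6 in the acute lesioned striatum (61.9 CPM), and Dusp8 stays between 36.4 and 43.3 CPM in every library.

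The inducible nuclear phosphatases are described first. Dusp1 (AK152905, chr17:26642537-26645417, minus strand, 3 exons) dephosphorylates ERK, JNK and p38 and is a classical immediate early gene. Its level was 9.75, 8.99 and 9.44 CPM in the acute unlesioned libraries and 51.0, 45.2 and 48.4 CPM in the acute lesioned ones. In the chronic groups it was 7.56, 8.36 and 6.79 CPM on the unlesioned and 86.7, 75.3 and 99.3 CPM on the lesioned side. The 6 lesioned libraries were all far above the 6 unlesioned ones, and those after chronic L-DOPA were all above those after acute L-DOPA. By edgeR the lesioned side was 5.15-fold higher after acute L-DOPA (log2 2.36, SE 0.0674, adjusted p = 5.54e-10) and 11.5-fold higher after chronic L-DOPA (log2 3.52, SE 0.125, adjusted p = 4.17e-08). The interaction was 1.17 on the log2 scale (SE 0.139, adjusted p = 0.00015). Within the lesioned striatum chronic exceeded acute by 0.85 (SE 0.102, adjusted p = 0.000279). On the unlesioned side the difference was -0.31 (SE 0.086) with an adjusted p of 0.0752 by edgeR, although the libraries did not overlap. This last difference passed the threshold in DESeq2 (adjusted p = 0.0399) and without the unlesioned chronic library 2 (-0.40, adjusted p = 0.00849), the library with the choroid plexus markers described at the end. All 7 transcripts of Dusp1 rose on the lesioned side under both treatments, but transcripts of a gene share reads, so this is not separate support.

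Dusp5 (ENSMUST00000038287, chr19:53603599-53616921, plus strand, 4 exons) is a nuclear phosphatase specific for ERK, which it also anchors in the nucleus. It was measured at 3.34, 3.94 and 4.22 CPM in the acute unlesioned libraries and at 9.79, 8.47 and 7.39 CPM in the acute lesioned ones. After chronic L-DOPA it stood at 3.39, 2.81 and 2.59 CPM on the unlesioned and 70.4, 61.6 and 73.4 CPM on the lesioned side. The lesioned libraries exceeded the unlesioned ones in both treatments, and the chronic lesioned libraries stood apart from all other 9. The rise was 2.25-fold after acute L-DOPA (log2 1.17, SE 0.109, adjusted p = 2.71e-05 by edgeR) and 23.4-fold after chronic L-DOPA (log2 4.55, SE 0.125, adjusted p = 1.28e-08). This was the largest change of any member in any of the comparisons. The interaction was 3.39 (SE 0.174, adjusted p = 1.05e-07 by edgeR), and the lesioned striatum held 8.01-fold more Dusp5 after chronic than after acute L-DOPA (log2 3.00, SE 0.115, adjusted p = 1.28e-07). On the unlesioned side the difference of -0.39 (SE 0.119) did not pass the test (adjusted p = 0.097). A clone on the opposite strand, AK153769, is assigned to the symbol and overlaps the gene's start, and since the strand setting of the counting is not given in the sources used here, reads of the strands may be mixed. All 4 transcripts rose alike, by 1.16 to 1.27 and by 4.45 to 4.55 on the log2 scale in the acute and chronic comparisons. Since transcripts of a gene share reads, this is not separate support.

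Dusp2 (NM_010090, chr2:127161895-127164113, plus strand, 4 exons), a nuclear phosphatase of ERK and p38 best known from lymphocytes, was scarce. Its level was 0.148, 0.245 and 0.157 CPM in the acute unlesioned libraries and 0.235, 0.359 and 0.382 CPM in the acute lesioned ones, and these ranges overlapped. In the chronic groups it was 0.129, 0.0751 and 0.208 CPM on the unlesioned and 1.78, 1.08 and 0.939 CPM on the lesioned side, with no overlap. These levels rest on 9 to 41 counts a library outside the chronic lesioned group and on 103 to 156 counts within it. The rise after chronic L-DOPA was 8.83-fold (log2 3.14, SE 0.345, adjusted p = 0.0002 by edgeR). After acute L-DOPA the difference was 0.82 (SE 0.28) with an adjusted p of 0.0774, and 0.83 with an adjusted p of 0.0331 when libraries of the same replicate number were paired as blocks. It also passed without the unlesioned acute library 2 (1.07, adjusted p = 0.0486) or the lesioned acute library 1 (1.03, adjusted p = 0.0382). With the summed level of cortical neuron markers in the fit, described below, it was 0.30 with an adjusted p of 0.632. The interaction was 2.33 (SE 0.497, adjusted p = 0.0137), and it missed the threshold without the unlesioned acute library 2 (2.08, adjusted p = 0.0516). In the lesioned striatum Dusp2 was 3.91-fold higher after chronic than after acute L-DOPA (log2 1.97, SE 0.274, adjusted p = 0.000719).

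Dusp4 (AK165991, chr8:35870351-35882948, plus strand, 4 exons) is a nuclear phosphatase of ERK, JNK and p38. It stood at 0.866, 0.778 and 0.832 CPM in the acute unlesioned libraries and at 0.758, 1.13 and 1.08 CPM in the acute lesioned ones. After chronic L-DOPA it was at 0.838, 1.09 and 0.954 CPM on the unlesioned side and at 3.43, 2.80 and 1.60 CPM on the lesioned side. Only the chronic lesioned libraries stood apart, and they spread more widely than those of any other group. The rise after chronic L-DOPA was 2.7-fold (log2 1.44, SE 0.242, adjusted p = 0.00343 by edgeR), and after acute L-DOPA the difference was 0.25 (SE 0.156, adjusted p = 0.329). The interaction of 1.19 (SE 0.325) lay close to the threshold, with an adjusted p of 0.0522, and with paired libraries it was 1.15 with an adjusted p of 0.0169. Without the lesioned chronic library 3, the lowest of its group, it was 1.44 (adjusted p = 0.00324). In the lesioned striatum chronic exceeded acute 2.65-fold (log2 1.41, SE 0.251, adjusted p = 0.00312).

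**Figure D2:**
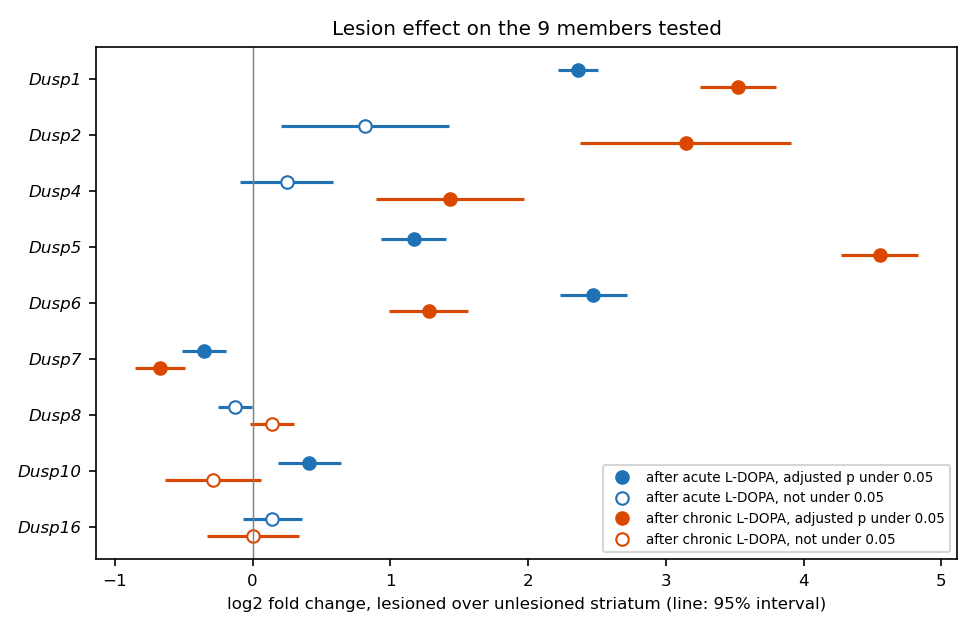
Log2 fold change of the lesioned over the unlesioned striatum (horizontal axis) for the 9 members tested (vertical axis), after acute (blue) and chronic (orange) L-DOPA; lines are 95% intervals and filled points passed an adjusted p of 0.05. The chronic value lies to the right of the acute one for the 4 nuclear members and to the left for Dusp6, Dusp7 and Dusp10.

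Dusp6 (NM_026268, chr10:98725865-98730123, plus strand, 3 exons) binds ERK in the cytoplasm and is widely read as a marker of ERK activity. It was measured at 10.7, 11.3 and 11.5 CPM in the acute unlesioned libraries and at 50.5, 73.2 and 62.1 CPM in the acute lesioned ones. After chronic L-DOPA it was at 7.88, 8.20 and 7.92 CPM on the unlesioned side and at 21.2, 15.1 and 21.9 CPM on the lesioned side. Lesioned exceeded unlesioned libraries in both treatments, but here the acute lesioned libraries were the highest. The rise was 5.55-fold after acute L-DOPA (log2 2.47, SE 0.111, adjusted p = 2.68e-08 by edgeR) and 2.42-fold after chronic L-DOPA (log2 1.28, SE 0.129, adjusted p = 0.000112). The interaction was -1.19 (SE 0.19, adjusted p = 0.00169). In the lesioned striatum Dusp6 was 3.19-fold lower after chronic than after acute L-DOPA (log2 -1.67, SE 0.156, adjusted p = 5.69e-05). In the unlesioned striatum it was 1.4-fold lower (log2 -0.48, SE 0.0663, adjusted p = 0.0116), with no overlap of the libraries. That call was lost without the unlesioned acute library 1 (adjusted p = 0.0627) or 2 (adjusted p = 0.0721), while the value stayed between -0.51 and -0.46 in every fit that left out a library.

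Dusp7 (NM_153459, chr9:106270963-106278055, plus strand, 3 exons), a close relative of Dusp6, was the only member whose fall on the lesioned side passed the test. Its level was 11.0, 9.79 and 10.8 CPM in the acute unlesioned libraries and 8.88, 7.99 and 7.75 CPM in the acute lesioned ones. In the chronic groups it was 9.66, 10.4 and 9.47 CPM on the unlesioned and 6.31, 5.87 and 6.34 CPM on the lesioned side. The sides did not overlap in either treatment, and the lowest libraries were the chronic lesioned ones. The lesioned striatum was 1.28-fold lower after acute L-DOPA (log2 -0.35, SE 0.0733, adjusted p = 0.00889 by edgeR) and 1.59-fold lower after chronic L-DOPA (log2 -0.67, SE 0.0815, adjusted p = 0.000419). The acute value was -0.22 with an adjusted p of 0.0957 when the summed level of cortical neuron markers entered the fit. The interaction, -0.31 (SE 0.107), had an adjusted p of 0.117, and of 0.0463 with paired libraries. The fall from acute to chronic L-DOPA within the lesioned striatum was 1.33-fold (log2 -0.41, SE 0.0849, adjusted p = 0.00654).

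Dusp9 (AK141667, chrX:70884758-70888850, plus strand, 4 exons), the ERK phosphatase of placenta and metabolic tissues, was at or near the floor. Its transcript held 0 to 7 counts a library, at most 0.0531 CPM, and no fold change is given.

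Of the phosphatases of JNK and p38, Dusp10 changed and Dusp8 and Dusp16 were not called by edgeR in any of the 5 comparisons, apart from the alternatives given here. Dusp8 (ENSMUST00000039926, chr7:149265395-149281177, minus strand, 7 exons) is expressed chiefly in brain and acts on JNK. Its level was 40.7, 39.3 and 42.4 CPM in the acute unlesioned and 37.3, 36.4 and 37.8 CPM in the acute lesioned libraries. In the chronic groups it was 37.6, 38.7 and 40.1 CPM on the unlesioned and 43.3, 41.6 and 43.2 CPM on the lesioned side. The libraries of the sides did not overlap in either treatment, in opposite directions, but the differences were small. The difference was -0.13 (95% interval -0.25 to -0.01, adjusted p = 0.159 by edgeR) after acute and 0.14 (-0.02 to 0.30, adjusted p = 0.26) after chronic L-DOPA, and the interaction was 0.27 (SE 0.0825, adjusted p = 0.0797). With paired libraries the interaction kept its value and had an adjusted p of 0.0279, and in DESeq2 of 0.0152. Within the lesioned striatum chronic exceeded acute by 0.20 (SE 0.0684, adjusted p = 0.0557), and by 0.22 without the lesioned chronic library 2 (adjusted p = 0.0435). This difference also passed with 1 transcript per gene tested (adjusted p = 0.0393), with all 12 libraries in the fit (adjusted p = 0.0207) and with the GC and length trends removed (0.27, adjusted p = 0.0259), as did the interaction in the last of these (0.33, adjusted p = 0.0334). With that removal and pairing together the interaction (adjusted p = 0.0206) and the chronic difference between the sides (0.19, adjusted p = 0.0244) passed.

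Dusp10 (ENSMUST00000048655, chr1:185858260-185899515, plus strand, 4 exons) inactivates p38 and JNK. It stood at 0.974, 1.06 and 1.10 CPM in the acute unlesioned and at 1.41, 1.37 and 1.37 CPM in the acute lesioned libraries. After chronic L-DOPA it was at 1.06, 1.02 and 0.968 CPM on the unlesioned and at 0.695, 0.971 and 0.811 CPM on the lesioned side. The acute lesioned libraries were the highest of all 12, and the chronic sides overlapped. Its difference was 0.41 (SE 0.106, adjusted p = 0.0256 by edgeR) after acute and -0.29 (SE 0.157, adjusted p = 0.282) after chronic L-DOPA, with an interaction of -0.69 (SE 0.175, adjusted p = 0.0351). The acute call was lost in DESeq2 (adjusted p = 0.082), with the cortical markers in the fit (0.0909) and when any of the acute libraries but the lesioned library 3 was left out, where the highest adjusted p was 0.0968. Its size moved little in these fits, with 0.41 in DESeq2, 0.40 with the cortical markers and 0.36 to 0.45 in the fits without a library that lost the call. The interaction was lost when any library but the lesioned chronic library 2 was left out (highest adjusted p 0.0917). The difference between chronic and acute lesioned striatum, 1.66-fold lower (log2 -0.74, SE 0.145, adjusted p = 0.00526), passed whichever library was left out. The gene had 61 to 186 counts a library.

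Dusp16 (NM_130447, chr6:134665491-134742646, minus strand, 7 exons), which acts on JNK and shuttles between nucleus and cytoplasm, lay between 1.98 and 2.96 CPM in all 12 libraries. The groups overlapped in every comparison. Its difference between the sides was 0.14 (95% interval -0.07 to 0.36, adjusted p = 0.377 by edgeR) after acute and 0.00 (-0.33 to 0.34, adjusted p = 0.995) after chronic L-DOPA. Chronic against acute lesioned striatum gave -0.23 (adjusted p = 0.24), and -0.39 with an adjusted p of 0.0371 without the lesioned chronic library 2.

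In the unlesioned striatum, where chronic and acute L-DOPA differed for Dusp6 only, the values of Dusp2, Dusp4, Dusp7, Dusp8, Dusp10 and Dusp16 ran from -0.37 to 0.22 on the log2 scale, with adjusted p from 0.397 to 0.876 by edgeR and overlapping libraries.

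With libraries of the same replicate number paired, 6 of 9 members were called in the acute comparison, where 21.8% of all transcripts were, and 8 of 9 in the interaction, where 12.1% were. The additional members were Dusp2 in the former and Dusp4, Dusp7 and Dusp8 in the latter. In the chronic comparison of the sides it was 6 of 9 as without pairing, where 21.6% of transcripts were called.

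Per kilobase of transcript, the order of the members differed between the groups. Among the members, Dusp8 was the most abundant mRNA of the unlesioned striatum, at 8.49 ± 0.324 CPM per kilobase in the acute and 8.07 ± 0.26 in the chronic group (SD, n = 3). It was followed there by Dusp1, at 4.07 ± 0.164 and 3.28 ± 0.34. After acute L-DOPA Dusp6 (4.00 ± 0.145) came next in the unlesioned striatum, with libraries that overlapped those of Dusp1. After chronic L-DOPA Dusp7 (3.06 ± 0.144) came next and likewise overlapped Dusp1. In the acute lesioned striatum Dusp6 (22.1 ± 4.06) and Dusp1 (20.9 ± 1.26) led and could not be ranked, since their libraries overlapped. In the chronic lesioned striatum Dusp1 (37.7 ± 5.18) stood above Dusp5 (27.7 ± 2.48), with no overlap, and Dusp5 stood above Dusp8 (8.89 ± 0.194) and Dusp6 (6.93 ± 1.35). Dusp16, Dusp10, Dusp4 and Dusp2 were each under 1 CPM per kilobase on average in all 4 groups.

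The summed level of the 10 members was 22.6 ± 0.661 CPM per kilobase in the acute unlesioned and 58.3 ± 2.35 in the acute lesioned striatum. It was 19.7 ± 0.517 in the chronic unlesioned and 85.6 ± 8.83 in the chronic lesioned striatum. The make-up of this sum shifted with the group. Dusp8 held 37.5 ± 0.345% and 41.0 ± 1.87% of it in the unlesioned groups and 13.3 ± 0.733% and 10.4 ± 0.896% in the lesioned ones. Dusp6 held 37.8 ± 5.44% after acute and 8.04 ± 0.844% after chronic L-DOPA in the lesioned striatum. Dusp5 went the other way, with 5.94 ± 0.99% and 32.4 ± 0.506%. Dusp1 held 35.9 ± 3.58% and 43.9 ± 1.82%.

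**Figure D3:**
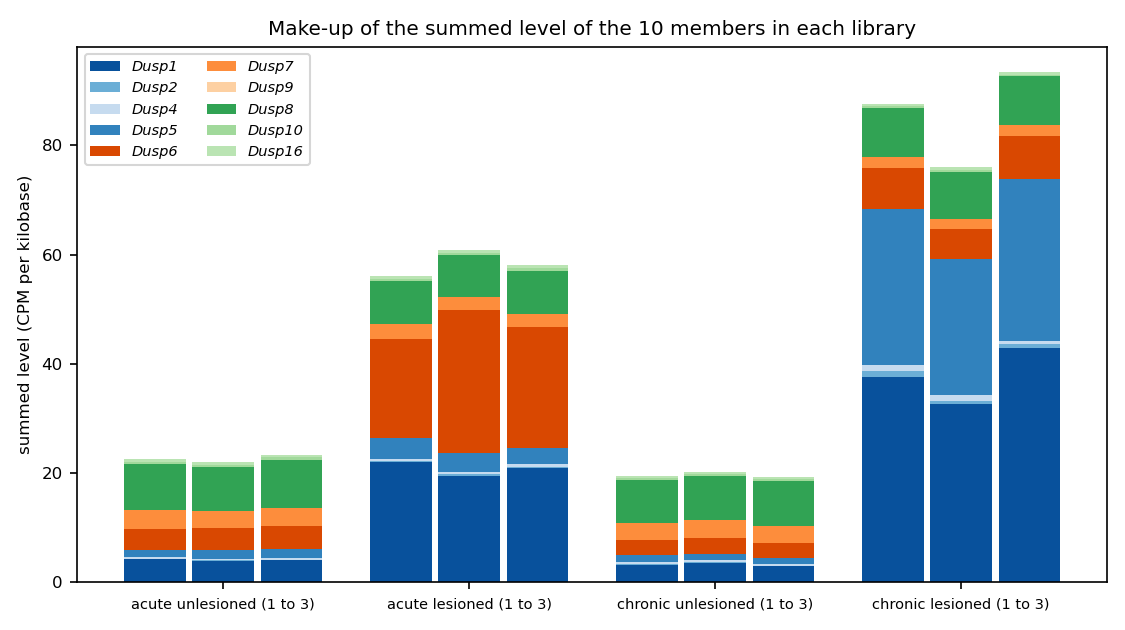
Summed level of the 10 members in CPM per kilobase of transcript (vertical axis) in each of the 12 libraries (bars, 3 per group), split by gene (colours). The unlesioned bars are led by Dusp8, the acute lesioned bars by Dusp1 and Dusp6 and the chronic lesioned bars by Dusp1 and Dusp5, and the sum runs from 19.3 in the lowest unlesioned to 93.3 in the highest lesioned library.

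The other genes of the pathway were taken from lists, which were chosen with earlier results of these data known. Of all genes, 15.3% were called in the acute and 13.7% in the chronic comparison of the sides. Of 10 genes known to be induced through ERK in neurons, all 10 rose in the lesioned striatum after acute and all 10 after chronic L-DOPA, with medians of 3.29 and 3.71 on the log2 scale. The strongest after acute L-DOPA was Fosb, a component of AP-1, at 4.67 (SE 0.0798, adjusted p = 3.77e-11 by edgeR), followed by Fos at 4.39 and the zinc finger factor Egr2 at 4.10. In the lesioned striatum 6 of these 10 genes were lower after chronic than after acute L-DOPA. Egr1, another zinc finger factor, was lower by 0.79 on the log2 scale (adjusted p = 0.000105), Fos by 0.71 (adjusted p = 0.00441) and Fosb by 0.68 (adjusted p = 0.000191), where Dusp6 differed by -1.67 and Dusp5 by 3.00. The list's median was -0.54, against -0.01 for all transcripts. In the unlesioned striatum, where 3.07% of all genes were called, 9 of the 10 were lower after chronic L-DOPA, as was Dusp6. That count fell to 3 without the unlesioned acute library 1 and to 3 without the unlesioned acute library 2. Of all genes, 5.1% were called in the interaction. The lesion effect was larger after chronic L-DOPA for 2 of the 10, Junb (interaction 0.66, adjusted p = 0.0108) and Egr2 (0.69, adjusted p = 0.0308), where that of Dusp5 differed by 3.39. The call of Egr2 was lost when any library was left out except the unlesioned library 1 after acute L-DOPA and library 2 of either side after chronic L-DOPA.

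Calls among the kinases, the other inhibitors and the tyrosine phosphatases stand beside the 15.3% (acute) and 13.7% (chronic) of all genes given above. Of 14 genes of the ERK cascade, 3 fell on the lesioned side in the acute comparison by edgeR. The count of falls was 1 without any one of the unlesioned acute libraries or without the lesioned acute library 1, and 0 at an adjusted p under 0.01. After chronic L-DOPA 0 of 14 were called by edgeR or by DESeq2, with 3 at an unadjusted p under 0.05. Pairing gave 1 higher and 1 lower, removal of the GC and length trends 3 higher, and both together 7 higher and 1 lower. Of the 13 genes of the JNK and p38 cascade tested, 2 fell after acute and 2 rose after chronic L-DOPA. The 2 falls became 0 without the unlesioned acute library 1, with the cortical marker sum in the fit or at an adjusted p under 0.01, and 1 without the unlesioned acute library 3 or the lesioned acute library 2. The 2 rises became 1 without the unlesioned chronic library 2 or 3, without the lesioned chronic library 1 or 3 or at an adjusted p under 0.01, and 6 with the pairing and the GC and length removal together. Those that rose after chronic L-DOPA included Map2k3, which encodes an activator of p38, with 1.43 ± 0.0908 CPM in the chronic unlesioned and 3.33 ± 0.218 CPM in the chronic lesioned striatum (log2 1.22, SE 0.109, adjusted p = 4.53e-05). In this its lesion effect differed from that after acute L-DOPA (interaction 1.05, SE 0.167, adjusted p = 0.0017).

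Among the 10 kinases activated by MAP kinases, 3 rose and 1 fell after acute L-DOPA, and 2 rose and 1 fell after chronic L-DOPA. The count of 2 rises was 1 without the lesioned chronic library 3. Mknk2, whose product phosphorylates the translation factor eIF4E, rose by 1.29 (adjusted p = 1.21e-06) and by 1.61 (adjusted p = 3.31e-06). Rps6ka5, which encodes the histone H3 kinase Msk1, fell by 0.43 (adjusted p = 0.00219) and by 0.55 (adjusted p = 0.00372). The other inhibitors of the ERK pathway, 10 genes with the Sprouty and Spred families, held 1 rise and 3 falls after acute L-DOPA and 1 fall after chronic L-DOPA, beside the 15.3% and 13.7% of all genes called. The rise was not called without the unlesioned acute library 1 or the lesioned acute library 2. Spred1, an inhibitor of Raf activation, was lower by 0.78 after acute L-DOPA (adjusted p = 2.58e-05) and its lesion effect differed after chronic L-DOPA (interaction 0.65, adjusted p = 0.00255). Spred2 was lower by 0.54 and by 0.44. Of 3 tyrosine phosphatases of MAP kinases, 2 fell after acute and 1 after chronic L-DOPA. Ptpn7, which dephosphorylates ERK and p38, fell by 1.29 (adjusted p = 3.53e-05) after acute and by 1.39 (adjusted p = 5.5e-05) after chronic L-DOPA. Ptprr fell by 0.30 in the acute comparison (adjusted p = 0.0353), and the list's count of 2 falls was 1 in 10 of 18 alternatives. Ptpn5, which encodes the striatum-enriched phosphatase STEP and completes the list, had differences of -0.0048 and 0.046, at 162 and 161 CPM in the acute unlesioned and lesioned striatum.

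Atypical Dusp genes lack the MAP kinase-binding domain of the 10 members. Of 11 tested out of 14 in the list, 1 rose and 1 fell after acute L-DOPA and 3 rose and 2 fell after chronic L-DOPA, beside the 15.3% and 13.7% of all genes called. The 2 falls became 1 in each of the 6 fits that left out a chronic library, and the rises ranged from 2 to 4. Dusp14 had 15.3 ± 1.65 CPM in the acute unlesioned and 25.2 ± 2.80 CPM in the acute lesioned striatum. In the chronic groups it had 12.3 ± 0.232 and 44.8 ± 0.527 CPM. It rose on the lesioned side by 0.73 (adjusted p = 0.000377) and by 1.86 (adjusted p = 7.54e-08), and the interaction was 1.14 (SE 0.124, adjusted p = 6.35e-05), positive as for Dusp1, Dusp2 and Dusp5. Dusp18 fell by 0.47 (adjusted p = 0.0026) and by 0.66 (adjusted p = 0.00282).

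**Figure D4:**
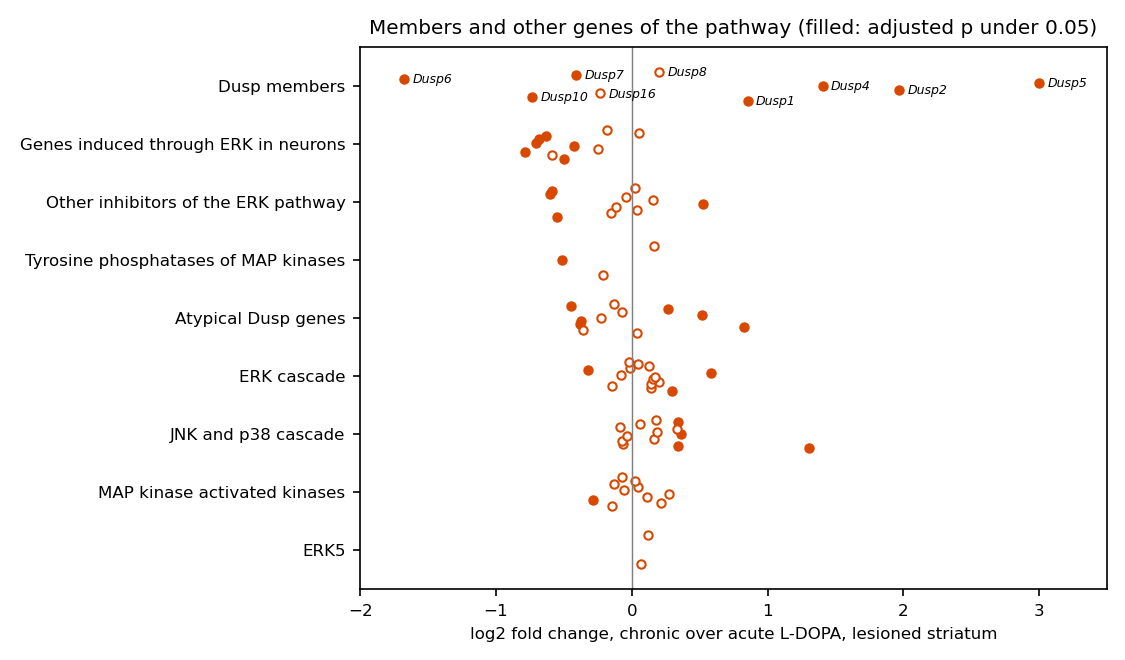
Log2 fold change of chronic over acute L-DOPA in the lesioned striatum (horizontal axis) for the members and the other lists of the pathway (vertical axis); each point is a gene, filled where the adjusted p was under 0.05. The members run from -1.67 (Dusp6) to 3.00 (Dusp5), whereas 6 of the 10 genes induced through ERK lie below 0 with filled points. Of all genes, 25.6% were called in this comparison.

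The genes most like Dusp1, Dusp2, Dusp5 and Dusp6, the members tested with the widest range of group means, were searched among 10969 genes by Pearson's r of log2(CPM + 0.5) over the 12 libraries, as a description. The libraries fall into 4 groups, which every gene shares, so that r mostly reads the group means. Nfkbid, an inhibitor of NF-kappaB, was most like Dusp1 (r = 0.996), with 0.484, 5.69, 0.457 and 11.3 CPM in the acute unlesioned, acute lesioned, chronic unlesioned and chronic lesioned striatum, and was followed by Cwc25 (0.993) and Gadd45b (0.992). Among those most like Dusp5 were the orphan receptor Gpr3 (r = 0.993), with 1.61, 4.37, 1.30 and 28.3 CPM in the same order, and the ephrin receptor Epha2 (0.992). Dusp6 was matched by a different set, led by the kinase Pim3 (r = 0.986) with 12.9, 37.2, 10.6 and 20.1 CPM, then Chka (0.972) and D8Ertd738e (0.97). Those most like Dusp2 were Casc4 (0.985), with only 17.5, 18.9, 17.8 and 23.6 CPM in the same order, Ncs1 (0.973) and Klf10 (0.965). Outside the chronic lesioned group Dusp2 lay under the added 0.5 CPM, so that its r rests mainly on that group.

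The tissue label was checked by markers. All 15 markers of spiny neurons were detected in each group. In bulk tissue, fewer cells of a type and less RNA per cell cannot be told apart. Calls among the markers stand beside the 15.3% (acute) and 13.7% (chronic) of all genes called between the sides. Between the treatments on the lesioned side 25.6% of all genes were called. Of the 5 markers of D1 spiny neurons, which carry the D1 receptor, Tac1 rose and the other 4 fell on the lesioned side in the acute comparison. In the chronic one 2 were higher and 2 lower than on the unlesioned side. Of the 5 markers of D2 spiny neurons, all 5 rose after acute and 2 after chronic L-DOPA, and of 5 markers common to spiny neurons 4 fell in the acute comparison. The count of 5 for the D2 markers was 3 without the unlesioned acute library 1 or 2, without the lesioned acute library 1 or 2, with all 12 libraries in the fit and with the cortical marker sum. The 2 D1 markers higher in the chronic comparison became 1 without the unlesioned library 3 or the lesioned library 1 or 3. Compared between the treatments on the lesioned side, 4 D1 markers were higher in the chronic group, among them Pdyn, the opioid precursor of these cells, by 3.35 on the log2 scale. Of the 5 D2 markers, 0 were higher and 3 lower in the chronic group in this comparison, with a median of -0.46. The summed level of 5 markers of cortical glutamatergic neurons ran from 1.59 to 41.1 CPM, and was 12.9 to 30.0 CPM in the acute unlesioned and 1.75 to 15.6 CPM in the acute lesioned libraries. The chronic unlesioned libraries held 5.17 to 41.1 CPM and the chronic lesioned ones 1.59 to 22.5 CPM. With this sum in the fit, Dusp1, Dusp5 and Dusp6 stayed called in both comparisons of the sides, and Dusp7 and Dusp10 lost their call after acute L-DOPA. The difference of Dusp7 was then -0.22, while that of Dusp10 was 0.40 with an SE of 0.148, against 0.41 and 0.106 without the sum. The choroid plexus markers summed to 480 CPM in the unlesioned chronic library 2 and to 3.68 to 11.6 CPM in the other 11 libraries. On the lesioned side their sums were 8.22 to 11.6 CPM after chronic and 3.68 to 5.26 CPM after acute L-DOPA. There 2 of the 4 choroid plexus markers tested were higher after chronic L-DOPA. In the lesioned striatum, 5 of 5 oligodendrocyte markers and 4 of 5 microglial markers were lower after chronic than after acute L-DOPA, with sums of 967 to 1800 against 1810 to 2930 CPM and of 37.0 to 45.1 against 56.3 to 66.3 CPM. The 5 oligodendrocyte calls were 1 to 5 in fits that left out a library, with 1 without the lesioned chronic library 1 and 2 without the lesioned chronic library 3 or the lesioned acute library 1 or 2. In the same comparison 3 of 5 astrocyte markers were lower, with sums of 166 to 217 against 191 to 236 CPM, and so were 2 of 3 blood markers, with sums of 1.57 to 3.03 against 4.44 to 8.58 CPM. The astrocyte count was 1 without the lesioned library 1 or 3 of either treatment, and the blood count was 1 without the lesioned acute library 2 or the lesioned chronic library 1. Between the sides, 2 of 5 astrocyte and 2 of 5 microglial markers were higher on the lesioned side in the acute comparison, and 1 of 5 and 0 of 5 in the chronic one. The acute microglial count was 1 without the unlesioned library 1 or the lesioned library 2, and 4 with the pairing or with the cortical marker sum. The acute astrocyte count was 4 with the pairing and 5 with the cortical marker sum. Of the 5 oligodendrocyte markers, 1 was higher in the acute comparison, with a median log2 difference of 0.30 over the list. That count was 0 without any one of the unlesioned acute libraries or without the lesioned acute library 1 or 2, 4 with the pairing, and 5 without the lesioned acute library 3 or with the cortical marker sum. Gfap, the intermediate filament of reactive astrocytes, had 16.3 ± 1.23 and 38.6 ± 11.1 CPM in the acute unlesioned and lesioned striatum and 14.1 ± 4.76 and 54.8 ± 14.9 CPM in the chronic groups. It rose by 1.25 (adjusted p = 0.000302) and by 1.97 (adjusted p = 0.000446) by edgeR. The part of these glial, choroid plexus and blood differences in the members' values was not tested.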

How the data were processed

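Total RNA from 3 striatal punches of 2 mm was sequenced as TruSeq libraries on a Genome Analyzer II. The authors mapped the reads to mm9 with Genomatix software and deposited raw read counts per transcript for 12 libraries, together with a normalized expression signal (counts scaled by transcript length and library size by the authors), which was not used for any test. Strand and multi-mapping settings are not given in the sources used here, and a read was counted on each transcript it overlapped, so that transcripts of a gene share reads. The authors' own comparisons (3 tables with p-values and fold changes) and their 36 columns of libraries were not used. Transcripts without a gene (296, with 0.0485% of the counts) were left out.

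Counts were tested with edgeR 4.0.16 (R 4.3.3, limma 3.58.1): filterByExpr by group, TMM, quasi-likelihood F test, and Benjamini-Hochberg adjustment over all transcripts tested. Of the 5 comparisons, 4 used their 6 libraries, and the interaction used all 12. SEs were derived from the F statistic, and intervals are at 95%. Levels were CPM with TMM factors over the 12 libraries, divided by transcript length where genes were compared. The scripts were tested on simulated counts. Levels and plots were computed in Python 3.11.15 with pandas 2.3.3 and matplotlib 3.10.9.

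All 10 members are named. From each other list, up to 3 genes with the largest change among those called at a mean of at least 1 CPM could be named, and for the members tested with the widest range of group means the 3 genes with the highest Pearson r of log2(CPM + 0.5). The members and lists were chosen with earlier results of these data known. Some genes that this rule names are not reported here. Promoters came from RefSeq (GRCm38.p6) and were placed in mm9 by exact match.

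Libraries with the same replicate number deviated together from their group means within each treatment (r = 0.39 to 0.478 after acute and 0.153 to 0.566 after chronic L-DOPA, over 12794 genes). The lowest, 0.153 for number 3 after chronic L-DOPA, was matched by a pair of other numbers (0.155). Across treatments, on the same side, r ran from -0.163 to 0.249 for libraries of the same number and from -0.334 to 0.364 for those of other numbers. Since r was above 0.1 for each pair within a treatment, the numbers were taken to pair the sides, although libraries of the separate treatments also reached r above the lowest of these, and the replicate block was fitted as an alternative. For the expression test the methods give triplicates and no word on pairing. The alternatives were DESeq2 1.42.0 and its size factors, no filter, an adjusted p under 0.01, 1 transcript or the summed counts per gene, the RefSeq transcript, the block, all 12 libraries in the fit, and each library left out. A covariate for cortical markers and removal of GC content and length trends, without and with the block, were added after seeing the data. Nothing states that libraries of a group come from separately processed tissue beyond the design's 12 mice, so p-values measure the spread between these libraries. For a single value, 3 libraries against 3 allow an exact permutation p of 0.1 at the smallest, so no such test was used. No libraries were copies of each other, with chi-square per degree of freedom of 5.39 to 19.3 between libraries of a group.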

Additional observations from a re-analysis of the deposited data

Results flagged for a closer look

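The effect of the lesion differed between chronic and acute L-DOPA by a test of the difference itself (edgeR's interaction term over 12 libraries) for 5 members. The difference, chronic minus acute on the log2 scale, was 1.17 for Dusp1, 2.33 for Dusp2 and 3.39 for Dusp5. It was -1.19 for Dusp6 and -0.69 for Dusp10. For Dusp1, Dusp5 and Dusp6 the call held under each alternative run. That of Dusp2 was lost at an adjusted p under 0.01 and without the unlesioned acute library 2, and that of Dusp10 in 11 of 12 fits that left out a library.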

How the results depend on the processing

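The 45 results of the 9 members in the 5 comparisons were recomputed under 855 alternatives, of which 794 kept direction and side of the threshold. Of the 24 called results none reversed, and in 27 of 457 alternatives they lost their call. Of the 21 not called, 26 of 398 alternatives brought a call and 8 reversed the sign. The reversed values were that of Dusp4 after acute L-DOPA with the cortical marker covariate (-0.051) and those of Dusp16 after chronic L-DOPA, with no filter (-0.0039), 1 transcript per gene (-0.0012), the replicate block (-0.0028) and the cortical marker covariate (-0.20), none of them called. With a library left out, Dusp16 after chronic L-DOPA ran from -0.14 to 0.12, and 3 of 6 such values were negative. The cause was not tested.

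The acute count of members called fell from 5 to 3 with the cortical marker covariate. In the unlesioned striatum it was 0 at an adjusted p under 0.01 and with all 12 libraries in the fit, 2 with DESeq2 and with the cortical marker covariate, and 0 to 2 with a library left out. For the interaction it was 3 at an adjusted p under 0.01, 8 with the replicate block, which paired the libraries by number, and 3 to 5 with a library left out. Apart from the calls given above and the interaction, the block on its own changed no other call of a member. With the GC and length trends removed, the block added a call of Dusp8 after chronic L-DOPA (0.19, adjusted p = 0.0244) and removed that of Dusp8 between the treatments on the lesioned side (0.27, adjusted p = 0.0746). In the comparisons of chronic with acute L-DOPA the block joined libraries of the same number from separate treatments. No pairing is known for these, so the block has no basis there, although those fits are among the alternatives counted. Of 62 results of the genes from other lists, 27 lost their call under at least 1 alternative and 0 reversed. Dusp9 and Dusp2 are limited by depth, with at most 7 and 156 counts a library. GC and length trends could be removed for all 10 members, over the 21042 of 52169 genes with a match.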
